A study of Mus musculus with 50 samples.

Results

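The cytokine gene Il33 and 8 other genes of interleukin 1 family signalling were examined in the mouse hippocampus on two-color Agilent arrays. Probes were selected by gene symbol, through the RefSeq accession or the symbol in the probe's description. They were 14 of the 41174 probes on the array and represented 9 of the 17580 genes that could be named. The series compared microarray platforms with RNA from 5 wild-type (WT) and 5 transgenic (TG) male mice on a C57/BL6j background. The TG mice over-express DCLK-short, a constitutively active kinase made from a splice form of the doublecortin-like kinase gene, and the promoter of the transgene is not given in the sources used here. On each of the 10 Agilent arrays a WT mouse was hybridized together with a TG mouse, and each mouse was used on 2 arrays, once in Cy3 and once in Cy5. Arrays are named here by their pair of mice, such as WT1/TG4. The arrays of the other platforms were not used for these genes.

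The product of Il33 is a nuclear cytokine that cells release on damage, and in the adult brain it is known from astrocytes and oligodendrocytes. It binds the receptor ST2, encoded by Il1rl1, which pairs with the shared co-receptor encoded by Il1rap. Interleukins 1 alpha and 1 beta (Il1a, Il1b) bind the receptor encoded by Il1r1, which recruits the same co-receptor, and Il1rn encodes an antagonist that occupies this receptor without signalling. Interleukin 18 (Il18) has a receptor of its own. All these receptors pass the signal through the adaptor Myd88 to IRAK kinases, TRAF6 and NF-kappaB.

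The direction of every difference on these arrays rests on labels that are in doubt. Directions are given as labelled, and an exchange of the 5 arrays labelled WT/TG (WT in Cy3) with the 5 labelled TG/WT (WT in Cy5) turns each of them. The direction as labelled for Il33 is opposite to the one stated in the study. A mouse that is shared by 2 arrays lies in opposite dyes, so that the Cy5 over Cy3 log ratios of these arrays, centered within each dye orientation, should be negatively correlated over probes. Over 33793 probes above the negative controls, 6 pairs of arrays share a mouse only as labelled, and their correlations had a median of 0.134 (-0.0752 to 0.535). The 6 pairs that share a mouse only after the exchange had a median of -0.320 (-0.500 to 0.286). The 4 pairs that share a mouse under both assignments had a median of -0.421, and the 9 pairs that share none a median of 0.192. The difference between TG and WT on the one-color ABI platform of the same series, joined by accession, had the opposite sign for 78 (80.4%) of 97 probes called on Agilent, beside 55.1% of all 1910 joined probes. None of the members could be found on ABI by accession, so Il33 itself could not be compared there.

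The signal was between 77.6 and 169 in the median probe of an array and dye, and 314 negative control spots had a 95th percentile of between 40.0 and 80.2. The 4 probes of the doublecortin-like kinase gene Dclk1 had mean log2 ratios of -0.08 to -0.06 and between -0.36 and 0.30 on single arrays, and none was called with limma. Whether these probes lie in the over-expressed transcript is not given in the sources used here. All probes were tested together with limma. At a false discovery rate (FDR) of 0.1, 7.41% of all probes were called, 3.66% as higher and 3.76% as lower in TG, and the unadjusted p was under 0.05 for 18.9%.

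Il33 was lower in the channels labelled TG on all 10 arrays, and 2.11% of all probes had one sign on all arrays. Its probe, A_51_P122321, is listed under the older name 9230117N10Rik, on the plus strand of chromosome 19 at positions 29213106 to 29213165 (the genome build is not named in the files). The gene was selected on this contrast, so its values are given as a description without a test. On the arrays with WT in Cy3, the log2 ratio of TG over WT was -0.50 on WT1/TG4, -0.50 on WT3/TG5, -0.56 on WT4/TG2, -0.60 on WT5/TG3 and -0.74 on WT6/TG1. On the arrays with WT in Cy5, it was -0.74 on WT5/TG1, -0.86 on WT1/TG2, -0.27 on WT4/TG3, -0.52 on WT3/TG4 and -0.46 on WT6/TG5. The ratios on WT1/TG2 and WT4/TG3 lay farthest apart, and the ratio nearest to 0 was that of WT4/TG3. The mean was -0.58 ± 0.17 (SD, n = 10 arrays), with -0.58 ± 0.10 (SD, n = 5) for WT in Cy3 and -0.57 ± 0.23 (SD, n = 5) for WT in Cy5. After the exchange of labels it is 0.58.

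**Figure D1:**
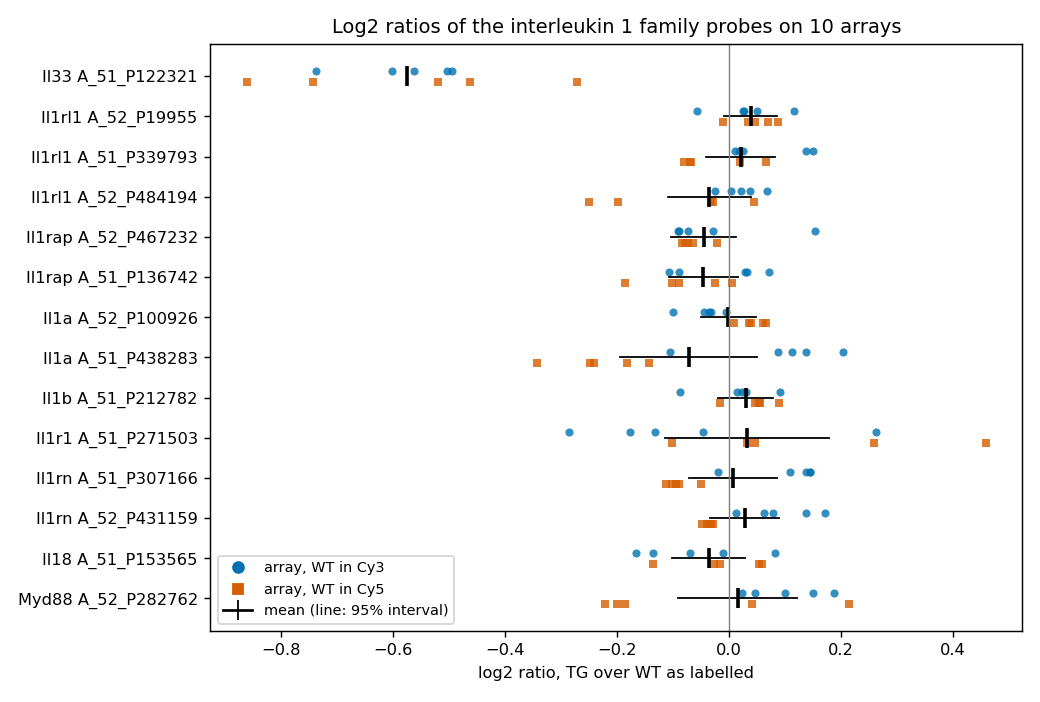
Log2 ratios of TG over WT as labelled (x axis) for the 14 probes (y axis) on 10 arrays. Points are single arrays, marked by the dye of the WT mouse, black ticks are means and black lines 95% intervals from limma (none for Il33, which was selected on this contrast). Il33 lies between -0.86 and -0.27, whereas the means of the other 13 probes lie between -0.07 and 0.04.

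The levels behind these ratios separated the groups in both dyes. In Cy3, the log2 level of Il33 after normalization was 8.86 in WT1, 8.61 in WT3, 8.70 in WT4, 8.90 in WT5 and 8.86 in WT6. In the same dye it was 8.24 in TG1, 8.09 in TG2, 8.27 in TG3, 8.45 in TG4 and 8.27 in TG5. The lowest WT channel lay above the highest TG channel. In Cy5, the level was 8.95 in WT1, 8.97 in WT3, 8.54 in WT4, 8.98 in WT5 and 8.73 in WT6. In this dye it was 8.12 in TG1, 8.13 in TG2, 8.30 in TG3, 8.37 in TG4 and 8.10 in TG5. The groups did not overlap in this dye either, nor over both dyes, with a mean of 8.81 ± 0.16 (SD, n = 10 channels of 5 mice) for WT and 8.23 ± 0.12 (SD, n = 10 channels of 5 mice) for TG. Il33 was selected on this contrast, and the share of all probes whose levels separate in this way was not counted. The mouse of each channel is as labelled and would change with the exchange, whereas the gap between the groups would only change its sign. In bulk tissue, fewer cells of a type and less RNA per cell cannot be told apart.

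**Figure D2:**
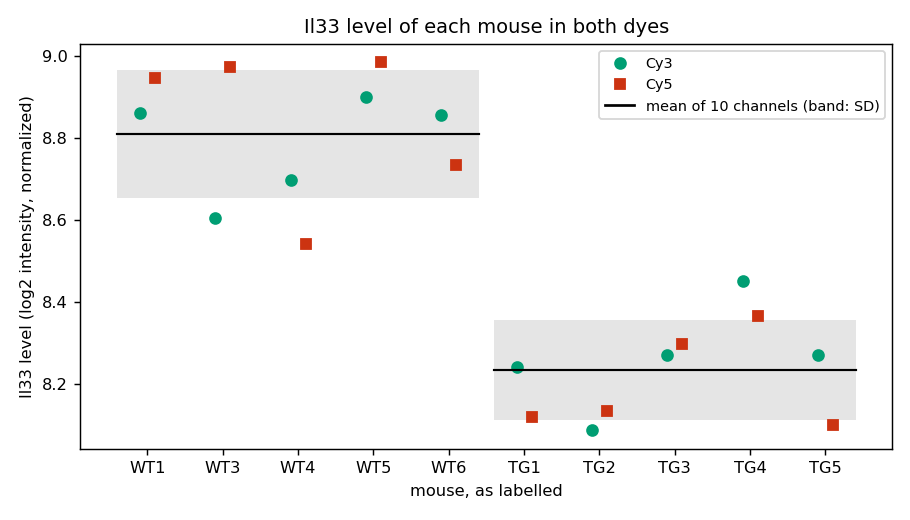
Normalized log2 intensity of the Il33 probe (y axis) for each mouse as labelled (x axis), in Cy3 and Cy5. Lines and bands are the mean and SD of the 10 channels of each genotype, 8.81 ± 0.16 for WT and 8.23 ± 0.12 for TG, and the lowest WT channel (8.54) lies above the highest TG channel (8.45).

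The other 8 genes had 13 probes, and none was called, beside 7.41% of all probes. With an unadjusted p under 0.05 the limma count was also 0 of 13, beside 18.9% of all probes. As labelled, 7 probes had a mean log2 ratio above 0 and 6 below 0, between -0.07 and 0.04, with a median of 0.01 beside 0.00 for all probes. The means were between -0.14 and 0.08 with median centring and between -0.16 and 0.23 with the background-subtracted ratio of the scanner software, again with no call. The 95% intervals of these probes, from signals without background subtraction, lay between -0.20 and 0.18 on the log2 scale.

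For dim probes the background is part of the signal and brings the ratio toward 0, so that a narrow interval around 0 does not bound a change of the transcript. A probe was taken as above the negative controls when its signal exceeded their 95th percentile in both dyes of all 10 arrays, and 10 of the 14 probes were. Il33 had a signal of 4.13 to 12.4 times that percentile (median 6.39, 20 channels). Il18, the interleukin 18 gene, had 4.92 to 17.9 times (median 7.19), and the adaptor Myd88 had 2.13 to 7.55 times (median 3.18). The receptor Il1r1 had 1.70 to 2.97 times (median 1.96). For each of these genes and for Il33 the highest value came from 1 channel, Cy5 of WT6/TG1. They were also flagged well above background on all arrays by the scanner software. Il1b (A_51_P212782) had a signal of 1.01 to 1.38 times the percentile and was flagged well above background on 4 arrays. For the antagonist Il1rn, the signal of A_51_P307166 was at or below the percentile in 16 of 20 channels, and this probe was on no array above it in both dyes. The second Il1rn probe, A_52_P431159, fell below it in 1 channel.

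**Figure D3:**
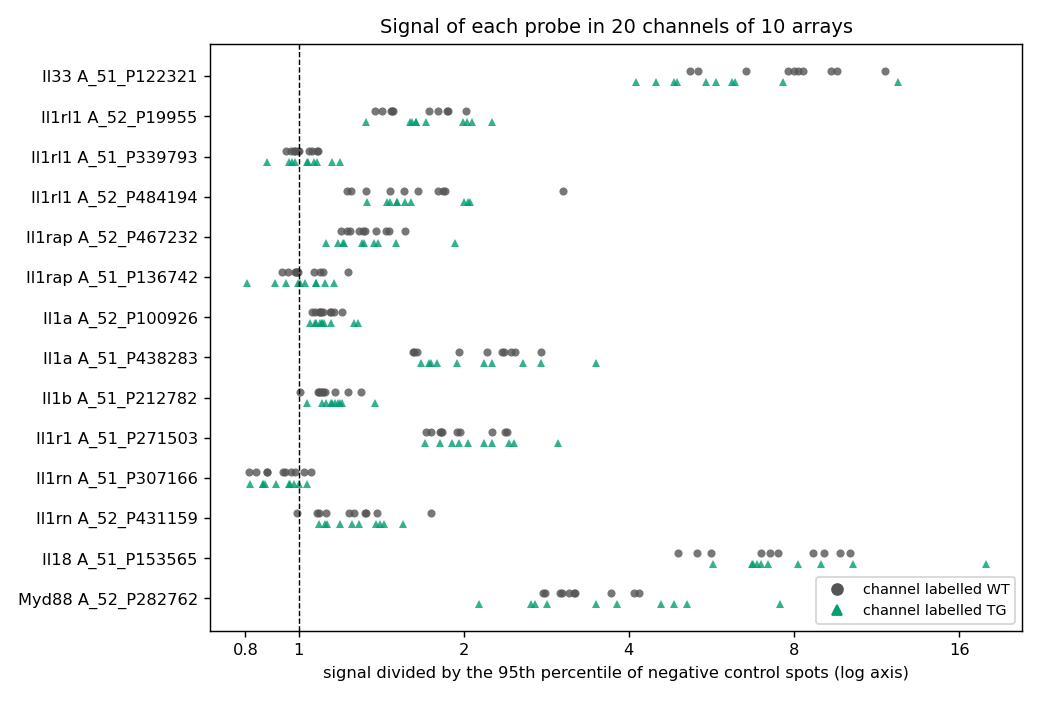
Signal of each probe (y axis) divided by the 95th percentile of negative controls on the same array in the same dye (x axis, log scale), in 10 channels labelled WT and 10 labelled TG. The dashed line marks a quotient of 1, around which lie Il1rl1 A_51_P339793 (9 of 20 channels at or below it), Il1rap A_51_P136742 (10 of 20) and Il1rn A_51_P307166 (16 of 20). Just above it lie Il1b (1.01 to 1.38) and Il1a A_52_P100926 (1.05 to 1.28).

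Among the ligands besides Il33, no probe differed beyond the spread between arrays. For Il18 the log2 ratio was -0.07, 0.08, -0.14, -0.01 and -0.17 on the arrays with WT in Cy3 (WT1/TG4, WT3/TG5, WT4/TG2, WT5/TG3 and WT6/TG1). It was -0.02, 0.05, 0.06, -0.14 and -0.03 on those with WT in Cy5 (WT5/TG1, WT1/TG2, WT4/TG3, WT3/TG4 and WT6/TG5). The ratios of Il18 spread around 0 in both orientations, with a mean of -0.04 ± 0.03 (SE, 95% interval -0.10 to 0.03, limma FDR 0.587). Il1b had a mean of 0.03 ± 0.02 (SE, 95% interval -0.02 to 0.08, limma FDR 0.552), near the limit of detection.

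Il1a was measured with 2 probes, and both differed between the dye orientations. For A_51_P438283 the log2 ratio was between -0.11 and 0.20 with WT in Cy3 (mean 0.09 ± 0.12, SD, n = 5) and between -0.34 and -0.14 with WT in Cy5 (mean -0.23 ± 0.08, SD, n = 5). The orientations did not overlap, and the mean over all arrays was -0.07 (limma FDR 0.564). Nor did they overlap for the second Il1a probe or for either Il1rn probe. The share of all probes whose orientations separate in this way was not counted. For A_52_P100926 the order of the orientations was the opposite, with means of -0.04 and 0.04. This probe was near the limit of detection. Its signal was 1.05 to 1.28 times the 95th percentile of the negative controls, and it was flagged well above background on 1 array. For Il1rn the orientation means were 0.10 (WT in Cy3) and -0.09 (WT in Cy5) for A_51_P307166 and 0.09 and -0.04 for A_52_P431159. The 2 orientations balance in the mean over 10 arrays, which was 0.01 and 0.03 for these Il1rn probes (limma FDR 0.960 and 0.694).

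The Il33 receptor gene Il1rl1 was measured with 3 probes on chromosome 1, which are annotated to different transcripts. A_52_P19955 (positions 40736381 to 40737243) is listed under the accessions of both variants, A_51_P339793 (40743966 to 40744025) under that of transcript variant 2 and A_52_P484194 (40761200 to 40761259) under that of transcript variant 1. The 10 log2 ratios of A_52_P19955 ranged from -0.06 (WT1/TG4) to 0.12 (WT4/TG2), with a mean of 0.04 and 8 of 10 arrays above 0. Its limma FDR of 0.377 was the lowest of the 13 probes. A_52_P484194 was between -0.03 and 0.07 on 8 arrays and lower on WT1/TG2 (-0.25) and WT5/TG1 (-0.20), with a mean of -0.04 (95% interval -0.11 to 0.04, limma FDR 0.661). A_51_P339793 was not well above background on any array and had a mean of 0.02 (limma FDR 0.793). With the background-subtracted ratio of the scanner software its mean was 0.23, outside the 95% interval of -0.04 to 0.08 without subtraction.

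Il1rap, the co-receptor gene, had 2 probes on chromosome 16. The probe of transcript variant 2, A_52_P467232 (positions 25487772 to 25487831), had log2 ratios of -0.09 on WT1/TG4, -0.03 on WT3/TG5, -0.07 on WT4/TG2, -0.09 on WT5/TG3 and 0.15 on WT6/TG1 with WT in Cy3. With WT in Cy5 it had -0.08 on WT5/TG1, -0.07 on WT1/TG2, -0.02 on WT4/TG3, -0.06 on WT3/TG4 and -0.08 on WT6/TG5. A single array, WT6/TG1, thus stood above 0 and apart from the other 9. The signal of this probe was 1.12 to 1.93 times the 95th percentile of the negative controls (median 1.31). The highest value was that of Cy5 on WT6/TG1. The mean log2 ratio was -0.05 ± 0.03 (SE, limma FDR 0.404) over 10 arrays. Without WT6/TG1 it was -0.07 and the probe passed the FDR of 0.1, as it did with robust regression (-0.06), so that the call for this probe rests on 1 array. The probe of transcript variant 1, A_51_P136742 (25502406 to 25502464), had a mean of -0.05 ± 0.03 (SE, limma FDR 0.421) and was not well above background on any array.

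Il1r1 varied most between arrays among the other 13 probes. Its log2 ratio was 0.26 on WT1/TG4, 0.26 on WT1/TG2 and 0.46 on WT3/TG4, -0.29 on WT6/TG1, -0.18 on WT4/TG2, -0.13 on WT5/TG3 and -0.10 on WT6/TG5, and within 0.05 of 0 on the other 3. The mean was 0.03 ± 0.07 (SE, 95% interval -0.12 to 0.18, limma FDR 0.885). Myd88, the adaptor common to these receptors, was above 0 on all 5 arrays with WT in Cy3 (0.02 to 0.19). With WT in Cy5 it was -0.19, -0.22 and -0.20 on WT5/TG1, WT1/TG2 and WT6/TG5 and 0.04 and 0.21 on WT4/TG3 and WT3/TG4. Its mean was 0.02 ± 0.05 (SE, 95% interval -0.09 to 0.12, limma FDR 0.930).

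Besides the members, 58 genes of these pathways were listed, of which 53 were measured with 69 probes. Of these probes, 2 were called as higher and 1 as lower in TG as labelled, which is 4.35% beside 7.41% of all probes. An unadjusted p under 0.05 (limma) was reached by 9 of the 69, beside 18.9% of all probes. The median log2 ratio of the 69 probes was 0.01, beside 0.00 for all probes. None of 3 probes of ligands and decoys, 7 of receptors and 11 of processing enzymes and inflammasome genes was called with limma, and among these 21 probes 1, of the inflammasome adaptor Pycard, had an unadjusted p under 0.05.

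The 2 probes called as higher were of Nfkbib and Nfkbie, which encode inhibitors that hold NF-kappaB in the cytoplasm. Nfkbib had a log2 ratio of 0.16 ± 0.05 (SE, above 0 on 9 of 10 arrays, limma FDR 0.0961) and Nfkbie 0.12 ± 0.03 (SE, above 0 on 8 of 10 arrays, limma FDR 0.0777). Nfkbia, from the same list of adaptors and kinases, had 0.11 (limma FDR 0.247). Nfkbiz, which was listed among the response genes, had -0.09 (limma FDR 0.205). The probe called as lower was of Ptgs2, the inducible cyclooxygenase gene, with -0.29 ± 0.08 (SE, above 0 on 1 of 10 arrays, limma FDR 0.0750). The second Ptgs2 probe had -0.17 (limma FDR 0.271). The cytokine and chemokine genes among the response genes, Ccl2, Cxcl1, Cxcl2, Il5, Il6, Il13 and Tnf, had log2 ratios between -0.01 and 0.04. Il6 was well above background on 2 arrays only, Il6 and Cxcl1 exceeded the negative controls on 9 arrays, and of the 69 pathway probes 60 exceeded them on all arrays.

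These 3 calls depended on the arrays included. The number of called pathway probes was 3 without WT6/TG1 or without WT1/TG2, 1 without WT5/TG3, WT4/TG3 or WT6/TG5, and 0 without WT1/TG4, WT3/TG5, WT4/TG2, WT5/TG1 or WT3/TG4. With the arrays of one mouse left out it was 3 without WT6, 2 without WT1, 1 without TG2, and 0 without any of the other 7 mice. The mean of Il33 stayed between -0.62 and -0.54 in all 20 of these fits.

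**Figure D4:**
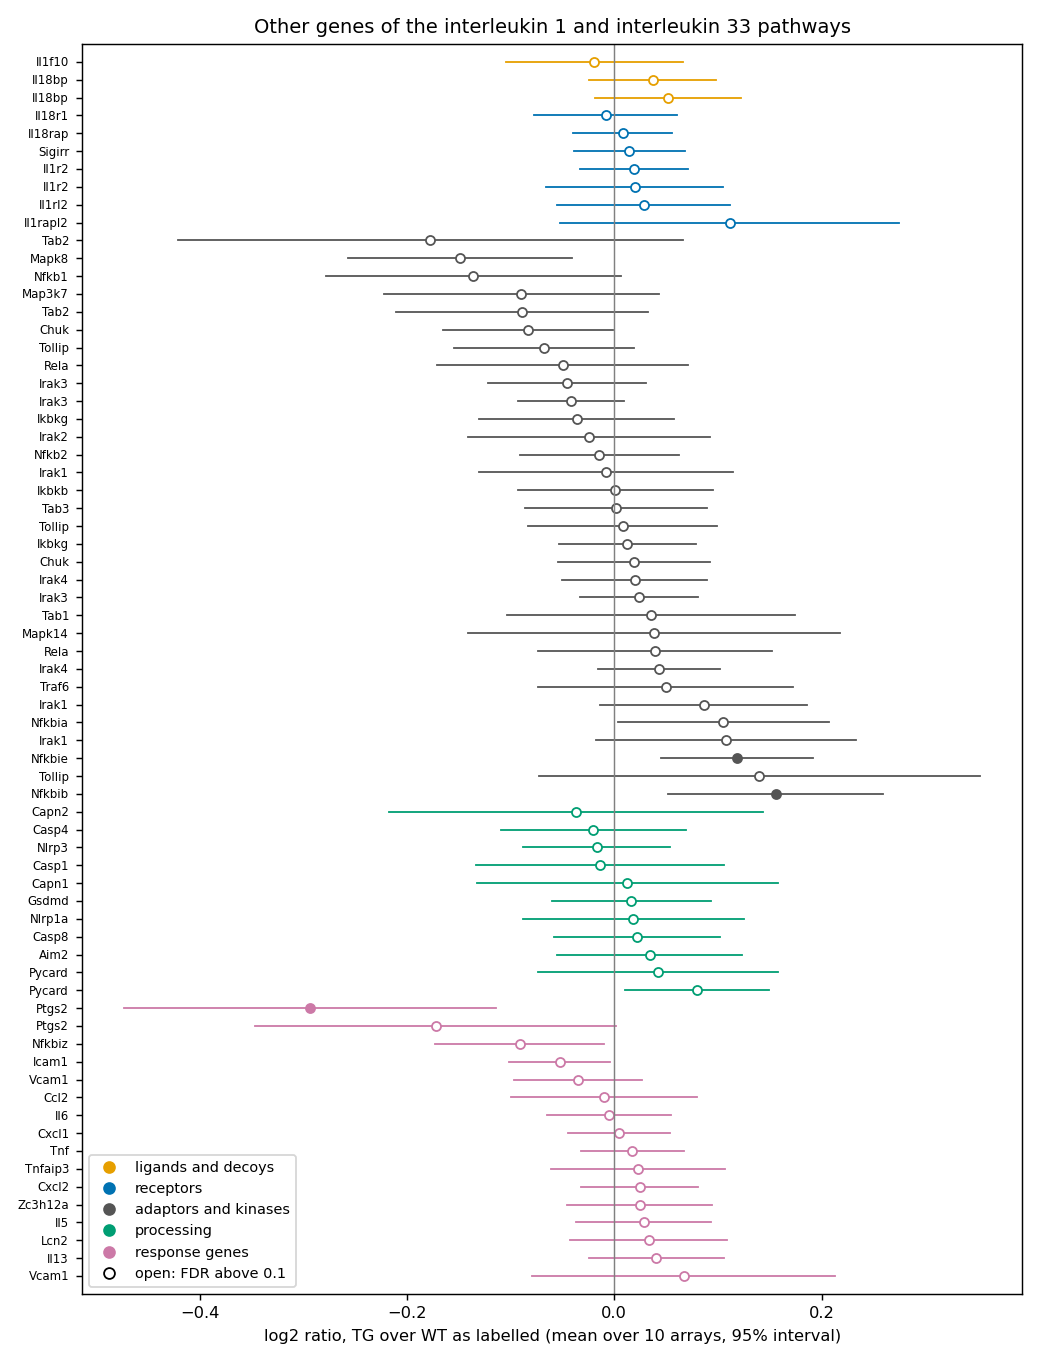
Mean log2 ratio of TG over WT as labelled (x axis) with the 95% interval from limma for 69 probes of 53 pathway genes (y axis, 1 line per probe, grouped by role). Filled points are the 3 probes with an FDR of 0.1 or less (Nfkbib 0.16, Nfkbie 0.12 and Ptgs2 -0.29).

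The likeness of other probes to Il33 was measured by the Pearson correlation of the log2 ratio over the 10 arrays, which share mice and are not independent. Among 21430 named probes above the negative controls, the highest values were found for Ikbke (0.903), Snapc4 (0.903), Gng8 (0.902), Rnpepl1 (0.901) and Dipk1a (0.895). Their mean log2 ratios were 0.06, -0.03, 0.00, 0.04 and -0.30, so that only Dipk1a was also lower in TG as labelled beyond the FDR (0.0316, limma). These probes were picked by size from 21430 over only 10 arrays, and whether chance alone gives correlations this high was not tested. For the 13 member probes the correlation with Il33 was between -0.24 and 0.65. The highest was that of Il1rl1 A_52_P484194 (Spearman 0.31), whose 2 lowest arrays, WT1/TG2 and WT5/TG1, were also the 2 lowest of Il33.

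Markers of the cells known to express Il33 and its receptor were measured on the same arrays. Of 98 marker probes, 97 exceeded the negative controls in both dyes of all arrays, among them all 13 of neurons. Of the 98, 6 were called as higher and 5 as lower in TG as labelled, which is 11.2% beside 7.41% of all probes. An unadjusted p under 0.05 (limma) was reached by 36 of the 98, beside 18.9% of all probes. Among 16 astrocyte probes 3 were called as higher, Aldh1l1 (0.23) and 2 of the 3 probes of the water channel gene Aqp4 (0.42 and 0.31), whereas the median of the astrocyte list was -0.03. An unadjusted p under 0.05 (limma) was found for 9 of the 16. Besides the 3 called, these were lower probes of Fgfr3 (-0.29, -0.09 and -0.08), Gfap (-0.15) and Gjb6 (-0.24 and -0.17). Among 16 oligodendrocyte probes 1 was called as lower, of the myelin gene Mbp (-0.22, 1 of 3 probes), and the median was -0.03. Of these 16 probes, 6 had an unadjusted p under 0.05 (limma). Besides the 1 called, they were higher probes of Mobp (0.29), Cnp (0.24) and Cldn11 (0.17) and lower probes of Mbp (-1.15) and Mog (-0.34). The other Mobp probe had -0.20 (limma FDR 0.357). The mean of the oligodendrocyte list on single arrays was between -0.43 (WT1/TG4) and 0.11 (WT6/TG1). A single probe, Mbp A_52_P329451, had -3.98 on WT1/TG4 and -4.32 on WT3/TG4, and without it the list mean was -0.19 on WT1/TG4 and -0.04 on WT3/TG4. The mean of the neuronal list moved in the same way, with -0.42 on WT1/TG4, -0.40 on WT3/TG4 and 0.12 on WT6/TG1. Its probe Snap25 A_52_P165961 had a lowest log2 ratio of -3.88, and the neuronal list mean was not computed without this probe. WT1/TG4 and WT3/TG4 are arrays of the same mouse as labelled, TG4. On WT1/TG4 and WT6/TG1 Il33 had -0.50 and -0.74, and the part of these list differences in the Il33 ratio was not tested.

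Among 14 microglial probes, P2ry12 (-0.29) and Itgam (-0.15) were called as lower and 1 of 2 probes of Aif1 (0.32) as higher. Among 8 endothelial probes Cldn5 (-0.25) and Slco1a4 (-0.20) were called as lower, and the median of the list was -0.12. An unadjusted p under 0.05 (limma) was found for 6 of the 8, beside 18.9% of all probes. Among these 6 was Ly6c1, which was higher (0.27). Of 14 probes of meninges and choroid plexus, 1 of 2 of Igf2 (0.31) was called, and of 13 neuronal probes 1 of 2 of Syn1 (0.30). The second Syn1 probe had -0.10, which was also the median of the neuronal list, and 9 of the 13 probes had a mean below 0. None of 9 probes of mast cells and type 2 lymphoid cells, which respond to this cytokine, was called with limma or stayed under an unadjusted p of 0.05. None of the 8 blood probes was called, and 1 had an unadjusted p under 0.05. The part of these cell types in the ratios of the members was not tested.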

How the data were processed

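Total RNA of both hippocampi of each mouse was amplified, labelled with Cy3 or Cy5 and hybridized by the authors. Per the file headers, they deposited mean and median pixel intensities of 43790 features for each of 10 arrays, read with Feature Extraction 8.5.1.1, and log10 ratios that this software had background-subtracted and dye-normalized. The mean intensities are neither. The deposited ABI signals are raw intensities and were used after quantile normalization for the check of the labels only. The 80 per-sample columns of the Illumina table could not be tied to mice and were not used.

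The dye order followed the sample titles. The log2 ratio of Cy5 over Cy3 was normalized by loess within each array with limma 3.58.1 in R 4.3.3, without background correction and with control spots at a weight of 0. It was turned to TG over WT, and spots of 1 probe were averaged. An intercept was fitted over 10 arrays with limma's empirical Bayes method, and p-values were adjusted by the method of Benjamini and Hochberg over 41174 probes. Each mouse was on 2 arrays, so the 10 ratios are not independent. Levels are single channels after loess and Aquantile normalization. A symbol came from the accession for 22072 probes and from the description for 2156, and 16946 had none. The fit was also run on simulated log ratios that were independent between arrays, without shared mice or dye effects. That run therefore does not show how the FDR holds on these arrays. The members, the pathway and marker lists and the tests were chosen with earlier results of these data known. Every member probe was named, and of the lists those past the FDR, with the 5 probes most like Il33. Further list genes (Nfkbia, Nfkbiz, Pycard, the second probes of Ptgs2 and Syn1, Mbp A_52_P329451 and the cytokine genes) were named after their values were seen. So were Fgfr3, Gfap, Gjb6, Mobp, Cnp, Cldn11, Mog, Ly6c1 and Snap25 A_52_P165961. The listed genes Il36a, Il36b, Il36g, Il36rn, Il1rapl1, Ermn and Hbb-b1 were not found on the array by symbol. The values of 1 listed marker gene are not reported here. Alternatives covered background correction, normalization, pixel statistic, the scanner's ratio, dye, mouse, robust fit, presence, FDR, gene level, single arrays and mice, and the exchange of labels.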

Additional observations from a re-analysis of the deposited data

Results flagged for a closer look

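The log2 ratio of Il1rap A_52_P467232 was 0.15 on WT6/TG1, whereas it was between -0.09 and -0.02 on the other 9 arrays. The distance of this array to the next was above Dixon's 95% critical value for 10 samples. Of 18 groups of values examined in this way, 1 had such an array, and about 1 in 20 is found by chance.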

How the results depend on the processing

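The mean log2 ratio of Il33 kept its sign in all alternatives except the exchange of the arrays labelled WT/TG with those labelled TG/WT (0.58), with values from -0.67 (the scanner software's own log ratio) to -0.50 (median centring). It was between -0.61 and -0.54 with 1 array left out and between -0.62 and -0.54 with both arrays of 1 mouse left out. None of the other 13 probes was called, except Il1rap A_52_P467232, which raised the count to 1 with robust regression and without WT6/TG1 (range 0 to 1 over single arrays, 0 for every mouse left out). Their signs changed for all 13 with the exchange, for 5 with median centring, and for up to 3 in each other alternative, and their means ranged from -0.16 to 0.23 (the scanner software's ratio). The 3 called pathway probes became 0 with median centring, with an FDR of 0.05 and with both arrays of a TG mouse averaged after the exchange, 1 with both arrays of a TG mouse averaged as labelled, and 0 to 3 without single arrays or mice. Of all probes, 3053 were called, 1335 with median centring, 1203 at an FDR of 0.05, 5969 with the WT mouse as a random block, 5068 with the TG mouse as a random block after the exchange, and 98 with the arrays of a TG mouse averaged after the exchange (the last 2, the removal of spots flagged as non-uniform and that of an Mbp probe were chosen after seeing the data). The correlations fitted within the blocks were negative, -0.25 for the WT mouse and -0.19 for the TG mouse after the exchange. A negative correlation narrows the standard error, so these 2 counts are not a stricter test. The count of called probes was 1117 to 3404 without single arrays and 282 to 3199 without single mice, and it changed by more than 1.5 times without WT3/TG5, WT4/TG2, WT5/TG1, WT4/TG3 or WT3/TG4 and without any mouse but WT1 and WT6. The cause of these changes was not tested. The count of members above the negative controls was 9 at the 99th percentile and 8 by the scanner's background flag. After the exchange the called list probes had -0.16 (Nfkbib), -0.12 (Nfkbie), 0.29 (Ptgs2), -0.23 (Aldh1l1), -0.42 and -0.31 (Aqp4), 0.22 (Mbp), 0.29 (P2ry12), 0.15 (Itgam), -0.32 (Aif1), 0.25 (Cldn5), 0.20 (Slco1a4), -0.31 (Igf2) and -0.30 (Syn1). No paired analysis was possible because each log ratio already compares a WT with a TG mouse on 1 array and the numbers of WT and TG mice only name mice. Slide and scan date could not be fitted, since all arrays had 1 scan date and each slide held 1 array.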
